A study of Xenopus laevis with 27 samples.

Results

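Regenerating tails of the frog Xenopus laevis, sampled 3 days post amputation (3 dpa), were compared with tails sampled 6 hours post amputation (6 hpa). By 3 days a bud of growing tissue has usually formed on the stump, and at 6 hours the stump is still a fresh wound. Each time had 3 libraries, A to C, so that 6 of the 27 libraries of a time course over regeneration were compared, and the comparison took all genes of the count table. Per the labels, both groups were amputated, every library held total RNA of 20 pooled animals at the regenerative stage, and the 3 libraries of a time are biological triplicates. The labels do not say whether each of the 3 came from a clutch of its own. The p-values therefore measure only how far these libraries differ, which may not cover the spread between clutches. The labels also name no strain, genotype or level of the cut. Uncut tails of the age of either group were not among the libraries used here, so time after amputation and the days of development between the groups cannot be told apart. Values of 3 libraries are given in the order A, B, C, means are given ± SD (n = 3), log2 fold changes ± SE, and levels at other times of the series are set beside them as a description, with no test.

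The tail of a frog tadpole holds notochord, spinal cord, segmented muscle, blood vessels, pigment cells and skin. After amputation, epidermis closes the wound within hours, cells at the cut surface transcribe AP-1 and other early response genes, and leukocytes arrive. Over the following days undifferentiated cells collect under the wound epidermis and form a bud, in which genes of the embryonic tail bud, of Wnt, FGF, BMP and Notch signalling and of matrix remodelling are known to be active. Xenopus laevis carries a duplicated genome, so most genes come as a copy named .L, on the long subgenome, and a copy named .S, on the short one. Copies are alike in sequence, and so are tandem families such as krt12, mmp9 and the globins. Counting may have shared reads among them, and their single values are uncertain to that extent.

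Total counts were 5536772, 4841258 and 4402174 at 3 dpa and 6019871, 4479125 and 1207557 at 6 hpa. Library 6 hpa C was thus the shallowest of the 6, and its lowest detectable level, 3 counts, was 3.27 CPM (counts per 1000000, scaled with TMM factors), against 0.467 to 0.699 CPM in the others. Thinned to 1000000 counts, 3 dpa B and 6 hpa C gave 18706 and 18870 genes with a read, and the other 4 libraries 20655 to 21710. Across genes, which are not independent replicates, Pearson's r of log2 CPM was 0.837 between 3 dpa B and either of the other 3 dpa libraries and 0.906 between 3 dpa A and C. Libraries 3 dpa A and C thus correlated more with 6 hpa A (0.871 and 0.864) than with 3 dpa B. No libraries of 1 time agreed within sampling noise. Defining genes of tail tissues, among them actc1 of muscle, tp63 of epidermis and col2a1 of notochord and cartilage, had reads in all 6 libraries, and of the markers of trunk and head organs 8 genes had enough reads to be tested.

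Of 22268 genes tested, 1064 (4.78%) differed between 3 dpa and 6 hpa at an adjusted p under 0.05 (edgeR's quasi-likelihood test with Benjamini-Hochberg adjustment over all genes tested, as in every adjusted p given here). The 243 genes that were higher at 3 dpa made up 1.09% of the genes tested and the 821 lower genes 3.69%. Higher genes were thus 22.8% of the called genes, against 33.4% with DESeq2 (425 higher, 849 lower) and 33.7% in a fit of the 6 libraries alone (229 higher, 451 lower). At least 4-fold differences numbered 113 among the higher and 415 among the lower genes. The 3 libraries of a time did not overlap those of the other time for 991 of the 1064 genes, and for 4973 of all 22268 genes tested. Over all genes the median log2 fold change was -0.02, and 49% of the values were positive. Called genes were also tracked through the 6 fits that left out 1 library each, which called between 682 and 877 genes. In all 6 of these fits 75 of the higher and 326 of the lower genes passed, and a gene that did so is said below to have held without any 1 library. For genes that did not, the adjusted p in the fits that lost the call, or its range, is given. With 1 library fewer these fits have less power, so a lost call does not by itself single out the library left out.

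**Figure D1:**
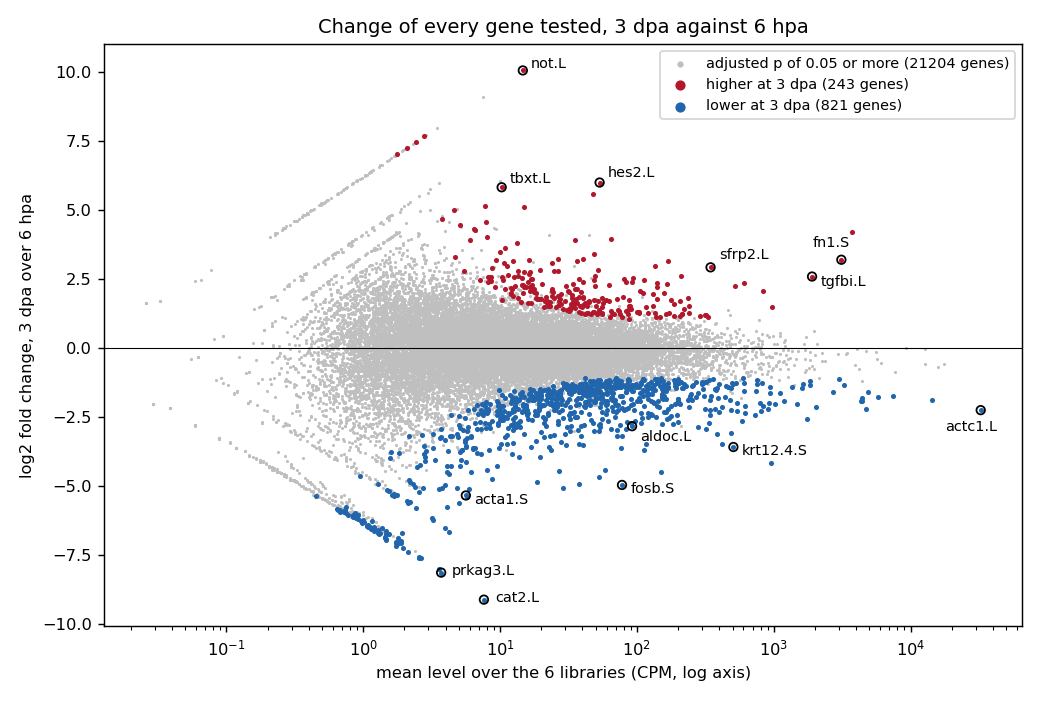
Log2 fold change of each of the 22268 genes tested, 3 dpa over 6 hpa, against the mean level over the 6 libraries in CPM on a log axis. Red points are the 243 genes higher at 3 dpa, blue points the 821 lower genes and grey points genes with an adjusted p of 0.05 or more; the straight diagonal rows at the left are genes with no or few reads at one of the times, whose fitted values are no measure of size. The highest point is not.L, and actc1.L, a muscle actin, is the most abundant gene among those called.

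Regulators of the embryonic tail bud and of the posterior body axis were among the genes higher at 3 dpa. Of 86 tested genes on the list of posterior patterning and tail bud genes, 13 rose and 0 fell, against 1.09% and 3.69% of all genes, and the median log2 fold change of the list was 0.53, with 65 of 86 values positive. The summed level of the list was 3753, 4487 and 3535 CPM at 3 dpa, against 2703, 3058 and 3853 CPM at 6 hpa, with overlapping groups, since 6 hpa C lay above 3 dpa A and C. The largest rises were those of not, a homeobox gene of the notochord, and of tbxt, the brachyury gene of mesoderm and notochord. Not.L was at 21.8, 49.95 and 16.3 CPM at 3 dpa, against 0 CPM in all 3 libraries at 6 hpa, at least 104-fold higher (adjusted p = 4.6e-05). Not.S was at 61.2, 166 and 51.6 CPM at 3 dpa, against 0.528, 2.10 and 5.46 CPM at 6 hpa (log2 fold change 5.60 ± 0.92, adjusted p = 0.000266). Library 3 dpa B was the highest for both copies. Tbxt.L was at 20.9, 21.1 and 19.0 CPM at 3 dpa, against 0.704, 0 and 0 CPM at 6 hpa (log2 fold change 5.84 ± 1.29, adjusted p = 0.00215), and its 3 dpa libraries were almost alike. For these 3 genes the calls held without any 1 library. Their groups did not overlap, which was a condition for choosing them among the largest changes. Tbxt.S was at 33.1, 29.9 and 23.4 CPM at 3 dpa, against 3.34, 4.43 and 5.46 CPM at 6 hpa (log2 fold change 2.76 ± 0.75, adjusted p = 0.0168). Tbxt.S lost its call without 3 dpa A or 6 hpa A or B (adjusted p = 0.0673 to 0.111). At 1 dpa, between the times compared, not.L averaged 1.12 ± 1.29 CPM, not.S 6.06 ± 5.05 CPM, tbxt.L 1.85 ± 1.56 CPM and tbxt.S 6.27 ± 2.53 CPM.

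The other 9 members that rose were posterior Hox genes, which set position along the body axis, sall factors and sox3.S, which is given with the neural markers, and the others were chosen after their values were seen. Hoxd10.L was at 38.3, 33.8 and 29.6 CPM at 3 dpa, against 5.28, 1.86 and 8.73 CPM at 6 hpa (log2 fold change 2.85 ± 0.57, adjusted p = 0.000678). Sall4.L, a zinc finger factor of embryonic progenitor cells, was at 53.9, 55.2 and 49.5 CPM at 3 dpa, against 13.4, 11.9 and 17.5 CPM at 6 hpa (log2 fold change 1.93 ± 0.43, adjusted p = 0.00236). For both genes the groups did not overlap and the calls held without any 1 library. Hoxd10.S, with 17.9 ± 1.61 CPM at 3 dpa and 3.73 ± 1.48 CPM at 6 hpa, passed (adjusted p = 0.0405). Hoxd10.S did not pass in any fit without 1 library (adjusted p = 0.0893 to 0.16). Smaller or less certain rises were those of hoxc8.S (2.57 ± 0.73, adjusted p = 0.0246), hoxd9.L (2.06 ± 0.62, adjusted p = 0.0363), hoxc13.L (1.42 ± 0.38, adjusted p = 0.0169), hoxa9.L (1.29 ± 0.39, adjusted p = 0.0363) and sall1.L (1.41 ± 0.38, adjusted p = 0.0151), given as log2 fold change ± SE. Hoxc8.S lost its call without 3 dpa B or C or 6 hpa A or B (adjusted p = 0.0572 to 0.141). Hoxd9.L lost its call without 3 dpa A, B or C or 6 hpa A or B (adjusted p = 0.0639 to 0.198). Hoxc13.L lost its call without 3 dpa A or C or 6 hpa A or C (adjusted p = 0.0554 to 0.0915). Hoxa9.L lost its call without 3 dpa B or C or 6 hpa A or B (adjusted p = 0.109 to 0.225). Sall1.L lost its call without 3 dpa C or 6 hpa A, B or C (adjusted p = 0.0556 to 0.0639). The list's count of 13 was 10, 8 and 6 without 3 dpa A, B and C and 5, 6 and 11 without 6 hpa A, B and C, and 6 without both 6 hpa C and 3 dpa B. The most posterior Hox gene of these, hoxc13.L, averaged 44.2 ± 10.4 CPM at 0 mpa, the time of the cut, 48.9 ± 13.9 CPM at 6 hpa, 59.0 ± 9.82 CPM at 1 dpa and 132 ± 21.1 CPM at 3 dpa.

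Other large rises came from regulators and secreted proteins that were not counted in that list. The list names gdf11, but gdf11.1.L was not matched to it. Sp5l.L, a zinc finger factor related to Sp5, was at 10.1, 10.9 and 24.3 CPM at 3 dpa, against 0.879, 0 and 0 CPM at 6 hpa (log2 fold change 5.14 ± 1.29, adjusted p = 0.00888). Gdf11.1.L, a ligand of the TGF-beta family that patterns the posterior axis in mouse, was at 71.0, 55.6 and 72.8 CPM at 3 dpa, against 8.09, 0.932 and 3.27 CPM at 6 hpa (log2 fold change 3.93 ± 0.70, adjusted p = 0.000124). Clu.L, the secreted chaperone clusterin, was at 115, 118 and 135 CPM at 3 dpa, against 11.8, 6.99 and 2.18 CPM at 6 hpa (log2 fold change 3.94 ± 0.59, adjusted p = 2.28e-05). The groups of these 3 genes did not overlap, which was a condition for choosing them among the largest changes. The calls of gdf11.1.L and clu.L held without any 1 library. Sp5l.L lost its call without 3 dpa C or 6 hpa B (adjusted p = 0.0626 to 0.0764). Irx1.S, an Iroquois homeobox gene, was at 7.32, 5.07 and 9.81 CPM at 3 dpa, against 0.352, 0.233 and 0 CPM at 6 hpa, its reads 26.8 times as frequent (95% counting interval 8.97 to 132) at 3 dpa (adjusted p = 0.0166). Irx1.S lost its call without 3 dpa C or 6 hpa A, B or C (adjusted p = 0.0531 to 0.0921). Its copy irx1.L moved alike, with 15.4 ± 1.48 CPM at 3 dpa and 3.10 ± 0.891 CPM at 6 hpa (2.22 ± 0.61, adjusted p = 0.0193). Irx1.L lost its call without 3 dpa A or 6 hpa A, B or C (adjusted p = 0.0552 to 0.104). Nkx3-3.S, another homeobox gene, had 4.51, 11.1 and 1.18 CPM at 3 dpa, against 0 CPM in all 3 libraries at 6 hpa, at least 20.1-fold higher (adjusted p = 0.0455). Nkx3-3.S did not pass in any fit without 1 library (adjusted p = 0.05 to 0.202). Nkx3-3.L was at 8.25, 12.29 and 13.5 CPM at 3 dpa, against 1.41, 0.932 and 1.09 CPM at 6 hpa, also without overlap, but did not pass (log2 fold change 3.26 ± 1.13, adjusted p = 0.0887).

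In the Notch, Hedgehog and retinoic acid pathways 10 of 70 genes rose and 0 fell, 14.3% higher against 1.09% of all genes, with a median log2 fold change of 0.36 and 43 of 70 positive values. The summed level was 2239, 2721 and 2241 CPM at 3 dpa, against 1450, 1719 and 2522 CPM at 6 hpa, with overlapping groups. Hes2.L, a repressor of the Hes family, was at 107, 85.1 and 123 CPM at 3 dpa, against 1.93, 1.40 and 1.09 CPM at 6 hpa (log2 fold change 6.01 ± 0.77, adjusted p = 3.22e-06). It was already at 117 ± 63.5 CPM at 1 dpa. Cyp26a1.L, the enzyme that degrades retinoic acid, was at 11.8, 9.95 and 15.7 CPM at 3 dpa, against 1.23, 0 and 0 CPM at 6 hpa (log2 fold change 4.33 ± 0.82, adjusted p = 0.000308). Crabp2.S, which carries retinoic acid in the cell, was at 36.9, 15.6 and 35.1 CPM at 3 dpa, against 7.21, 6.99 and 4.37 CPM at 6 hpa (log2 fold change 2.16 ± 0.52, adjusted p = 0.00608). In these 3 genes the calls held without any 1 library and the groups did not overlap. For hes2.L and cyp26a1.L the lack of overlap was a condition for choosing them among the largest changes. The Hedgehog ligand shh.L, chosen after its values were seen, was at 109, 87.4 and 93.2 CPM at 3 dpa, against 33.2, 43.3 and 81.8 CPM at 6 hpa and did not pass (log2 fold change 0.91 ± 0.42, adjusted p = 0.245).

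Further risers of these pathways were chosen after their values were seen or as the other copy of a gene given above. Among them, hes1.S, a Notch target, was at 52.7 ± 8.13 CPM at 3 dpa and 14.2 ± 7.22 CPM at 6 hpa (log2 fold change 1.83 ± 0.43, adjusted p = 0.00464). Hes1.S lost its call without 6 hpa A (adjusted p = 0.0576). Cyp26a1.S was at 16.1 ± 3.04 CPM at 3 dpa and 4.46 ± 1.07 CPM at 6 hpa (log2 fold change 1.76 ± 0.50, adjusted p = 0.024). Cyp26a1.S lost its call without 3 dpa A or C or 6 hpa A, B or C (adjusted p = 0.0525 to 0.112). At 0 mpa cyp26a1.S had averaged 90.04 ± 43.5 CPM and cyp26a1.L 17.8 ± 7.13 CPM, so that neither copy averaged more at 3 dpa than at the time of the cut. Rarg.S (1.33 ± 0.36, adjusted p = 0.0186) and rxra.L (2.02 ± 0.61, adjusted p = 0.0398), both nuclear receptors of retinoids, and gli3.L (1.63 ± 0.44, adjusted p = 0.0179), a transcription factor of the Hedgehog pathway, passed with smaller changes. Rarg.S lost its call without 3 dpa A or 6 hpa A or B (adjusted p = 0.0675 to 0.0953). Rxra.L lost its call without 3 dpa B or C or 6 hpa A, B or C (adjusted p = 0.0533 to 0.241). Gli3.L lost its call without 3 dpa B or 6 hpa B or C (adjusted p = 0.0514 to 0.146). The list's count of 10 was 7, 7 and 7 without 3 dpa A, B and C and 5, 5 and 8 without 6 hpa A, B and C, and 6 without both 6 hpa C and 3 dpa B.

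For Wnt, FGF, BMP and TGF-beta signalling, 9 of 95 genes rose and 1 fell, 9.47% higher against 1.09% of all genes and 1.05% lower against 3.69%. The median log2 fold change was 0.42, with 61 of 95 values positive. The summed level of the list was 7877, 6825 and 7476 CPM at 3 dpa, against 3033, 3276 and 4313 CPM at 6 hpa, and the groups did not overlap. Of these sums tgfbi.L alone held 3735, 2520 and 3555 CPM at 3 dpa and 650.5, 575 and 388 CPM at 6 hpa. Most of the difference was thus that of a single gene, and the sum does not speak for the list as a whole. Sfrp2.L, a secreted Wnt modulator of the frizzled-related family, was at 639, 567 and 622 CPM at 3 dpa, against 60.5, 63.4 and 120.1 CPM at 6 hpa (log2 fold change 2.93 ± 0.41, adjusted p = 1.33e-06). Tgfbi.L, a matrix protein induced by TGF-beta, was at 3735, 2520 and 3555 CPM at 3 dpa, against 650.5, 575 and 388 CPM at 6 hpa (log2 fold change 2.60 ± 0.39, adjusted p = 7.67e-06). In contrast to sfrp2, sfrp1.S of the same family was at 0.778, 0 and 0.589 CPM at 3 dpa, against 10.4, 7.92 and 10.9 CPM at 6 hpa (log2 fold change -4.28 ± 0.86, adjusted p = 0.000584). These 3 calls held without any 1 library, and no library of one time reached those of the other. Tgfbi.L, the most abundant of the 3, is also on the list of interstitial matrix genes. The other copy of sfrp1, sfrp1.L, did not pass (adjusted p = 0.917), so the contrast with sfrp2 rests on sfrp1.S alone. Wnt11.S, a ligand of non-canonical Wnt signalling, was at 12.9, 16.0 and 15.5 CPM at 3 dpa, against 3.87, 1.63 and 1.09 CPM at 6 hpa (log2 fold change 2.57 ± 0.74, adjusted p = 0.0283). Wnt11.S lost its call without 3 dpa A, B or C or 6 hpa B or C (adjusted p = 0.0504 to 0.153). Its copy wnt11.L was at 5.60, 20.3 and 15.7 CPM at 3 dpa, against 12.49, 13.5 and 21.8 CPM at 6 hpa, with overlapping groups, and did not pass (log2 fold change -0.15 ± 0.52, adjusted p = 0.933).

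The other members that rose, chosen after their values were seen, were ligands, mediators and antagonists. Both copies of tgfb2, a TGF-beta ligand, passed. Tgfb2.L averaged 78.2 ± 21.6 CPM at 3 dpa and 28.2 ± 13.1 CPM at 6 hpa (log2 fold change 1.41 ± 0.44, adjusted p = 0.0471). Tgfb2.S averaged 29.0 ± 10.8 CPM at 3 dpa and 5.07 ± 4.93 CPM at 6 hpa (log2 fold change 2.30 ± 0.66, adjusted p = 0.0275). Lef1.S, the transcription factor that acts with beta-catenin, was at 190.3, 244 and 146 CPM at 3 dpa, against 43.3, 38.5 and 126 CPM at 6 hpa (log2 fold change 1.54 ± 0.39, adjusted p = 0.01), with the groups apart although 6 hpa C lay well above 6 hpa A and B. Sfrp2.S (1.59 ± 0.44, adjusted p = 0.0193), dkk3.S of the Dickkopf family (2.21 ± 0.67, adjusted p = 0.0379) and smad6.S, an inhibitor of BMP signalling (1.49 ± 0.44, adjusted p = 0.0314), were also higher. No FGF ligand or receptor was thus among the called members, nor any BMP ligand or receptor, and the share of the list does not speak for each pathway. Tgfb2.L lost its call without 3 dpa A or C or 6 hpa A, B or C (adjusted p = 0.0777 to 0.207). Tgfb2.S lost its call without 3 dpa A or B or 6 hpa B or C (adjusted p = 0.0581 to 0.125). Lef1.S lost its call without 3 dpa B or 6 hpa A or B (adjusted p = 0.0526 to 0.122). Sfrp2.S lost its call without 3 dpa B or C or 6 hpa A or B (adjusted p = 0.0549 to 0.167). Dkk3.S lost its call without 3 dpa A, B or C or 6 hpa A or C (adjusted p = 0.0546 to 0.22). Smad6.S lost its call without 3 dpa A or B or 6 hpa A, B or C (adjusted p = 0.0543 to 0.189). The list's 9 higher members were 4, 3 and 5 without 3 dpa A, B and C and 4, 3 and 4 without 6 hpa A, B and C, and 4 without both 6 hpa C and 3 dpa B.

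**Figure D2:**
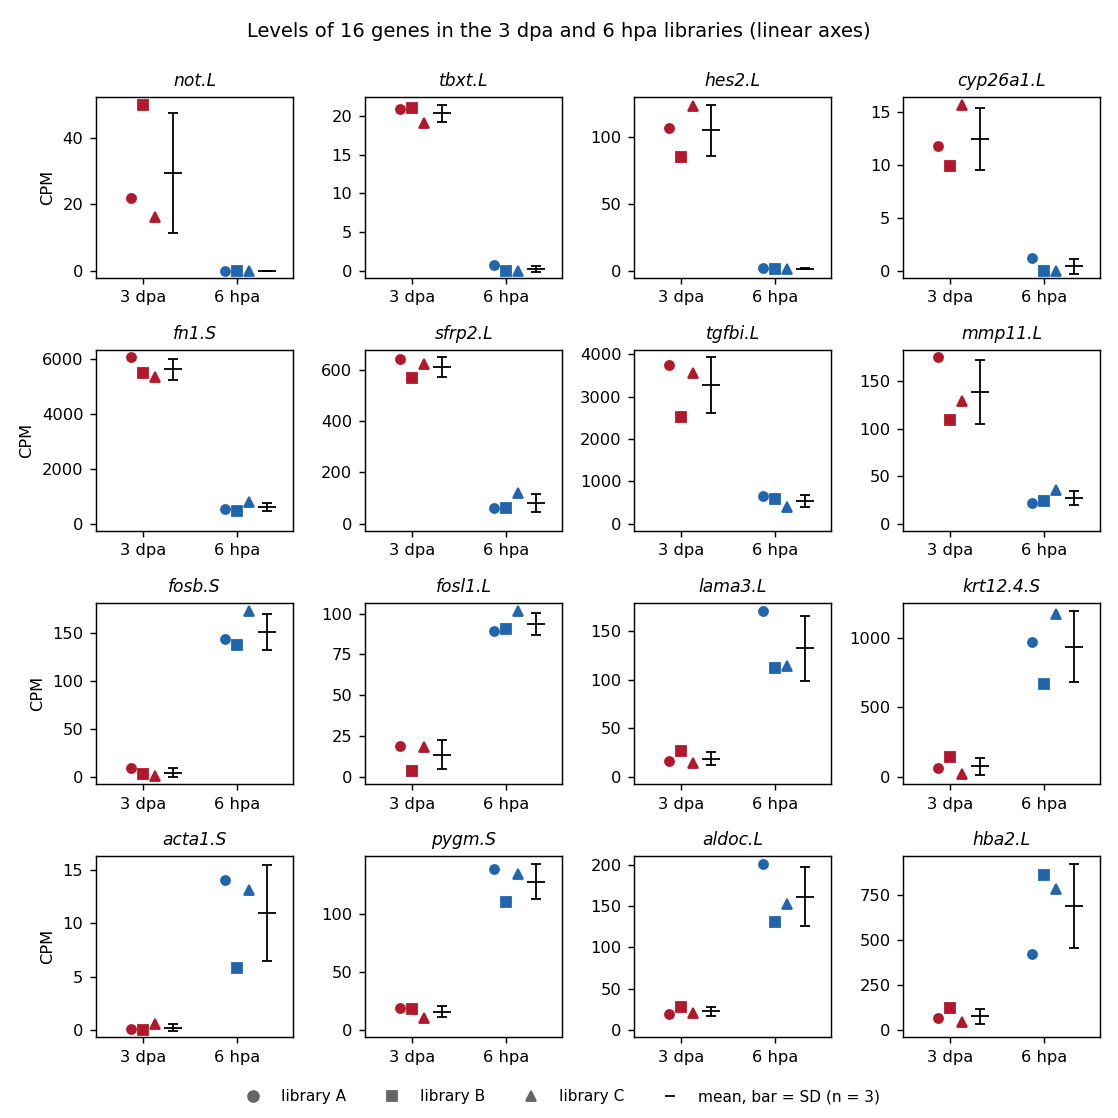
Level in CPM (linear axes starting at 0) of 16 genes in the 3 libraries of 3 dpa (left, red) and of 6 hpa (right, blue) in each panel; symbols mark the library letter, and the black mark and bar give the mean and SD of the 3 libraries (n = 3). The upper 8 genes, from not.L to mmp11.L, are higher in every 3 dpa library, and the lower 8, from fosb.S to hba2.L, are lower in every 3 dpa library than in any 6 hpa library.

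Interstitial matrix genes gave calls in both directions. Of 85 genes 5 rose and 3 fell, 5.88% higher against 1.09% of all genes and 3.53% lower against 3.69%, so that the lower share was close to that of all genes. The summed level was 54970, 60540 and 58740 CPM at 3 dpa, against 57030, 54440 and 93310 CPM at 6 hpa, with overlapping groups. The median log2 fold change, -0.05, was close to that of all genes and turned positive with RLE scaling (0.05). Fn1.S, the adhesive matrix protein fibronectin, was at 6055, 5489 and 5330 CPM at 3 dpa, against 558, 483 and 785 CPM at 6 hpa (log2 fold change 3.21 ± 0.39, adjusted p = 6.7e-08). Ltbp3.S, which binds latent TGF-beta in the matrix, was at 333, 106 and 293 CPM at 3 dpa, against 45.02, 31.2 and 12.0 CPM at 6 hpa (log2 fold change 2.98 ± 0.43, adjusted p = 3.69e-06). With tgfbi.L, given above, these were the 3 risers that held without any 1 library. Fn1.S averaged 393 ± 37.1 CPM at 0 mpa, 609 ± 157 CPM at 6 hpa, 2440 ± 402 CPM at 1 dpa and 5625 ± 381 CPM at 3 dpa. Ltbp3.L (1.86 ± 0.57, adjusted p = 0.0435) and plod2.S, a lysyl hydroxylase of collagen (2.25 ± 0.63, adjusted p = 0.0233), passed too. Ltbp3.L did not pass in any fit without 1 library (adjusted p = 0.0712 to 0.183). Plod2.S lost its call without 3 dpa A or 6 hpa A or C (adjusted p = 0.103 to 0.185). The 5 higher members were 3 to 5 without 1 library (fewest without 3 dpa A, 6 hpa A and 6 hpa C) and the 3 lower members 1 to 3 without 1 library (fewest without 3 dpa C and 6 hpa A). They were 4 and 1 without both 6 hpa C and 3 dpa B.

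Thbs4, a thrombospondin of tendon and muscle attachments, was lower in both copies. Thbs4.S was at 28.3, 26.9 and 29.0 CPM at 3 dpa, against 124, 94.1 and 163 CPM at 6 hpa (log2 fold change -2.16 ± 0.37, adjusted p = 5.08e-05), without overlap, and held without any 1 library. Thbs4.L was at 113, 91.3 and 107 CPM at 3 dpa, against 337, 174 and 337 CPM at 6 hpa (log2 fold change -1.44 ± 0.37, adjusted p = 0.0108). Thbs4.L lost its call without 3 dpa B or C or 6 hpa A (adjusted p = 0.0523 to 0.0687). Loxl2.S, a lysyl oxidase that crosslinks collagen, was at 17.4, 22.6 and 11.8 CPM at 3 dpa, against 40.8, 30.8 and 60.03 CPM at 6 hpa (log2 fold change -1.31 ± 0.40, adjusted p = 0.0411). Loxl2.S lost its call without 3 dpa A or C or 6 hpa A or C (adjusted p = 0.0971 to 0.208). The main fibrillar collagen genes did not pass. Col1a1.L was at 11940, 16220 and 13840 CPM at 3 dpa, against 15780, 15980 and 30530 CPM at 6 hpa (log2 fold change -0.57 ± 0.38, adjusted p = 0.489). Col1a2.L was at 4427, 5600 and 4841 CPM at 3 dpa, against 5940, 5510 and 7882 CPM at 6 hpa (log2 fold change -0.38 ± 0.34, adjusted p = 0.651). These collagen genes were chosen for their abundance after their values were seen, and their groups overlapped.

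Matrix proteases and inhibitors also gave calls in both directions. Of 60 genes 7 rose and 4 fell, 11.7% higher against 1.09% of all genes and 6.67% lower against 3.69%, with a median log2 fold change of 0.31. Their summed level was 3781, 3845 and 3704 CPM at 3 dpa, against 4156, 4351 and 5521 CPM at 6 hpa, lower in every 3 dpa library. The collagenase gene mmp8.S, given below, fell by more CPM on average than this sum did. The lower sum is thus that of a single gene and not of the list as a whole. Mmp11.L, the metalloproteinase stromelysin 3, was at 175, 109.6 and 129.7 CPM at 3 dpa, against 21.8, 23.8 and 36.0 CPM at 6 hpa (log2 fold change 2.39 ± 0.43, adjusted p = 0.000136). Mmp9.2.S, a gelatinase, was at 169.5, 190.4 and 169 CPM at 3 dpa, against 42.9, 44.7 and 44.8 CPM at 6 hpa (log2 fold change 2.00 ± 0.40, adjusted p = 0.000685). Ctsk.L, the collagen-degrading protease cathepsin K, was at 72.4, 64.6 and 49.1 CPM at 3 dpa, against 17.2, 11.7 and 17.5 CPM at 6 hpa (log2 fold change 2.02 ± 0.44, adjusted p = 0.00166). These 3 held without any 1 library, and their groups did not overlap. Mmp9.2.S and ctsk.L were chosen after their values were seen. Htra1.L, a secreted serine protease, was at 18.05, 26.1 and 12.6 CPM at 3 dpa, against 2.46, 0.932 and 4.37 CPM at 6 hpa (log2 fold change 3.08 ± 0.81, adjusted p = 0.0139). Htra1.L lost its call without 6 hpa A or B (adjusted p = 0.0729 to 0.122). Mmp13l.L, a collagenase, was at 38.3, 4.49 and 45.3 CPM at 3 dpa, against 3.17, 7.69 and 4.37 CPM at 6 hpa (log2 fold change 2.51 ± 0.71, adjusted p = 0.0244), and its groups overlapped since 3 dpa B lay with the 6 hpa libraries. Mmp13l.L lost its call without 3 dpa A or C or 6 hpa A or C (adjusted p = 0.0719 to 0.171).

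Mmp14.L, a membrane-bound metalloproteinase, averaged 402 ± 24.7 CPM at 3 dpa and 178 ± 46.1 CPM at 6 hpa (log2 fold change 1.17 ± 0.32, adjusted p = 0.0206). Adam9.S, of the ADAM family, averaged 62.4 ± 10.6 CPM at 3 dpa and 25.9 ± 4.68 CPM at 6 hpa (log2 fold change 1.29 ± 0.39, adjusted p = 0.0405). Mmp14.L lost its call without 3 dpa A, B or C or 6 hpa A or C (adjusted p = 0.0568 to 0.125). Adam9.S did not pass in any fit without 1 library (adjusted p = 0.0547 to 0.195). Both were chosen after their values were seen. Counts of calls varied: the 7 higher members of the list were 3 to 5 without 1 library (fewest without 6 hpa A) and the 4 lower members 2 to 4 without 1 library (fewest without 3 dpa A and 3 dpa C). Among the genes that fell, mmp19.L was at 3.73, 16.0 and 7.07 CPM at 3 dpa, against 35.9, 38.9 and 58.9 CPM at 6 hpa (log2 fold change -2.30 ± 0.58, adjusted p = 0.00971). Mmp19.L lost its call without 3 dpa A or C (adjusted p = 0.0622 to 0.0806). Mmp8.S, a collagenase, was at 234, 553 and 337 CPM at 3 dpa, against 791, 1135 and 2484 CPM at 6 hpa (log2 fold change -1.97 ± 0.46, adjusted p = 0.00539), and 6 hpa C was the highest library. Mmp8.S lost its call without 3 dpa A or 6 hpa C (adjusted p = 0.0515 to 0.0801). Mmp8.L was at 129.5, 180.5 and 236 CPM at 3 dpa, against 52.6, 126 and 504 CPM at 6 hpa, with overlapping groups (log2 fold change -0.29 ± 0.53, adjusted p = 0.855). Mmp1.S, another collagenase, was at 536 ± 61.9 CPM at 3 dpa and 662 ± 194 CPM at 6 hpa and did not pass (log2 fold change -0.31 ± 0.43, adjusted p = 0.808), so its level at 3 dpa could not be told from that at 6 hpa.

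Genes of growth and division gave few calls, and their number depended on the libraries kept in the fit. Of 86 DNA replication genes 1 rose, of 109 mitosis genes 2 rose, and of 78 genes of ribosome biogenesis and translation factors 2 rose, while 0 of any of these fell. These shares, 1.16%, 1.83% and 2.56%, stand against 1.09% of all genes. The medians were 0.50, 0.56 and 0.58 on the log2 scale, with 65 of 86, 85 of 109 and 64 of 78 values positive. Summed over the list, ribosome biogenesis genes were at 5869, 5764 and 5928 CPM at 3 dpa, against 4274, 4164 and 4280 CPM at 6 hpa. DNA replication genes were at 1358, 1080 and 1342 CPM at 3 dpa, against 919, 879 and 746 CPM at 6 hpa. Mitosis genes were at 3416, 3315 and 3268 CPM at 3 dpa, against 2453, 2897 and 2425 CPM at 6 hpa. For all 3 lists every 3 dpa library was above every 6 hpa library. At 0 mpa the sums were 1092 to 1206 CPM for DNA replication and 2866 to 3341 CPM for mitosis, which overlapped those at 3 dpa. For ribosome biogenesis the sums at 0 mpa were 3537 to 3831 CPM, below every 3 dpa library. Tpx2.S, a spindle assembly factor, was at 134, 76.7 and 113 CPM at 3 dpa, against 46.8, 50.8 and 25.1 CPM at 6 hpa (log2 fold change 1.36 ± 0.39, adjusted p = 0.0247). Tpx2.S lost its call without 3 dpa A or C or 6 hpa A or C (adjusted p = 0.0657 to 0.143). Ckap2.L, a spindle protein, was at 29.3, 40.8 and 31.6 CPM at 3 dpa, against 12.49, 13.5 and 7.64 CPM at 6 hpa (log2 fold change 1.53 ± 0.43, adjusted p = 0.0223). Ckap2.L lost its call without 3 dpa B or C or 6 hpa A, B or C (adjusted p = 0.0595 to 0.0967). Chaf1a.S, a subunit of chromatin assembly factor 1, was at 23.03, 22.2 and 20.4 CPM at 3 dpa, against 8.27, 7.69 and 0 CPM at 6 hpa (log2 fold change 1.81 ± 0.52, adjusted p = 0.0279). Chaf1a.S did not pass in any fit without 1 library (adjusted p = 0.0519 to 0.131).

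Of the ribosome biogenesis genes, mycn.L, a Myc family transcription factor, was at 22.4, 13.5 and 23.8 CPM at 3 dpa, against 4.40, 4.66 and 4.37 CPM at 6 hpa (log2 fold change 2.14 ± 0.62, adjusted p = 0.029). Mycn.L lost its call without 3 dpa A or C or 6 hpa A, B or C (adjusted p = 0.0719 to 0.131). Npm1.L, the nucleolar protein nucleophosmin, was at 106, 30.4 and 69.3 CPM at 3 dpa, against 27.96, 26.1 and 5.46 CPM at 6 hpa (log2 fold change 1.68 ± 0.47, adjusted p = 0.0229), with 6 hpa C the lowest. Npm1.L lost its call without 3 dpa A or C or 6 hpa C (adjusted p = 0.0675 to 0.212). Common markers of cycling cells, chosen after their values were seen, did not pass. Mki67.L was at 72.5, 89.4 and 109 CPM at 3 dpa, against 45.4, 47.3 and 40.4 CPM at 6 hpa (log2 fold change 1.01 ± 0.36, adjusted p = 0.0946), without overlap. Top2a.L was at 229, 108 and 201 CPM at 3 dpa, against 96.0, 121 and 63.3 CPM at 6 hpa (log2 fold change 0.93 ± 0.37, adjusted p = 0.158). Pcna.L was at 97.4, 74.1 and 94.6 CPM at 3 dpa, against 71.6, 74.1 and 33.8 CPM at 6 hpa (log2 fold change 0.54 ± 0.37, adjusted p = 0.51). Cdk1.L was at 24.6, 15.8 and 27.3 CPM at 3 dpa, against 30.2, 26.1 and 36.0 CPM at 6 hpa (log2 fold change -0.43 ± 0.45, adjusted p = 0.708). With DESeq2 the counts were 2 higher for DNA replication, 10 for mitosis and 6 for ribosome biogenesis. Without both 6 hpa C and 3 dpa B they were 0, 0 and 1. Leaving out 90 mpa C and 7 dpa C, which belong to other times, gave more calls. Then 4 DNA replication genes rose and 0 fell, 13 mitosis genes rose and 2 fell, and 7 ribosome biogenesis genes rose and 1 fell. Of all 23270 genes tested in that fit 560 rose and 1271 fell.

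Factors of the early wound response were among the genes that fell. Of 77 transcription factors and feedback regulators of that response 14 fell and 1 rose, 18.2% lower against 3.69% of all genes, and the median log2 fold change was -0.80, with 19 of 77 values positive. The summed level of the list was 4393, 4008 and 4265 CPM at 3 dpa, against 5350, 4763 and 7871 CPM at 6 hpa, without overlap. It had been 1190 to 1471 CPM at 0 mpa, below every 3 dpa library, and 23020 to 25530 CPM at 60 mpa, so that most of its decline came before 6 hpa. The sums at 1 dpa, 2786 to 4241 CPM, overlapped those at 3 dpa. Fosb.S, a Fos family member of the AP-1 complex, was at 9.65, 2.93 and 1.57 CPM at 3 dpa, against 143, 137 and 172 CPM at 6 hpa (log2 fold change -4.95 ± 0.51, adjusted p = 4.43e-09). Fosb.L was at 2.18, 0 and 5.102 CPM at 3 dpa, against 90.8, 66.0 and 64.4 CPM at 6 hpa (log2 fold change -4.92 ± 0.80, adjusted p = 0.000354). Crem.L, a factor of cyclic AMP signalling, was at 3.73, 0 and 2.55 CPM at 3 dpa, against 30.9, 26.6 and 10.9 CPM at 6 hpa (log2 fold change -3.45 ± 0.66, adjusted p = 0.000326). All 6 hpa libraries of these 3 genes were above every 3 dpa library, and the calls held without any 1 library. The other genes of the list described here were chosen after their values were seen. Fos.L was at 12.0, 12.49 and 10.2 CPM at 3 dpa, against 84.2, 53.6 and 146 CPM at 6 hpa (log2 fold change -3.00 ± 0.44, adjusted p = 4.98e-06). Fosl1.L was at 19.3, 3.51 and 18.6 CPM at 3 dpa, against 89.3, 90.7 and 102 CPM at 6 hpa (log2 fold change -2.75 ± 0.49, adjusted p = 0.00024). Fosl1.S was at 14.8, 10.9 and 17.1 CPM at 3 dpa, against 61.2, 79.9 and 81.8 CPM at 6 hpa (log2 fold change -2.37 ± 0.41, adjusted p = 5.8e-05). These encode AP-1 subunits too, and all 3 held without any 1 library.

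Klf2, a zinc finger factor, was lower in both copies. Klf2.S averaged 16.6 ± 4.69 CPM at 3 dpa and 106 ± 31.8 CPM at 6 hpa (log2 fold change -2.65 ± 0.39, adjusted p = 3.95e-06). Klf2.L averaged 6.82 ± 0.673 CPM at 3 dpa and 38.2 ± 18.15 CPM at 6 hpa (log2 fold change -2.42 ± 0.38, adjusted p = 1.43e-05). Nr4a2.L, an orphan nuclear receptor, averaged 4.69 ± 3.56 CPM at 3 dpa and 24.4 ± 9.30 CPM at 6 hpa (log2 fold change -2.32 ± 0.46, adjusted p = 0.000599). Btg2.S, an antiproliferative gene, averaged 19.7 ± 8.85 CPM at 3 dpa and 87.0 ± 23.6 CPM at 6 hpa (log2 fold change -2.14 ± 0.35, adjusted p = 2.94e-05). Dusp5.L, a phosphatase of ERK, averaged 146 ± 52.5 CPM at 3 dpa and 542 ± 42.7 CPM at 6 hpa (log2 fold change -1.89 ± 0.40, adjusted p = 0.00118). These too held without any 1 library, so that 11 of the list's 14 lower members did. At 0 mpa fosb.S averaged 0.988 ± 0.656 CPM, fosl1.L 0.401 ± 0.694 CPM and dusp5.L 9.80 ± 5.05 CPM, below their levels at 3 dpa. Bhlhe40.L, a repressor of the clock, was at 83.6, 65.5 and 58.1 CPM at 3 dpa, against 152, 112 and 188 CPM at 6 hpa (log2 fold change -1.12 ± 0.33, adjusted p = 0.0342). Bhlhe40.L lost its call without 3 dpa A, B or C or 6 hpa A or C (adjusted p = 0.056 to 0.17). The 1 gene that rose, zfp36l1.S, a protein that destabilises mRNA, was at 266, 328 and 261 CPM at 3 dpa, against 84.8, 131 and 164 CPM at 6 hpa (log2 fold change 1.19 ± 0.36, adjusted p = 0.042). Zfp36l1.S lost its call without 3 dpa A, B or C or 6 hpa A or B (adjusted p = 0.0898 to 0.25).

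Inflammatory and leukocyte genes gave few calls. Of 51 inflammatory genes 4 fell and 0 rose, 7.84% lower against 3.69% of all genes, with a median log2 fold change of -0.10. Their summed level was 910.3, 687 and 915 CPM at 3 dpa, against 1212, 1184 and 1063 CPM at 6 hpa, lower in every 3 dpa library. Of 47 leukocyte markers 2 rose and 2 fell, 4.26% higher against 1.09% of all genes and 4.26% lower against 3.69%, with a median of -0.005. Summed levels of the leukocyte list were 2928, 2203 and 2498 CPM at 3 dpa, against 2930, 3312 and 2647 CPM at 6 hpa, with overlapping groups. Nos2.L, the inducible nitric oxide synthase, was at 0, 1.76 and 1.18 CPM at 3 dpa, against 13.2, 10.5 and 6.55 CPM at 6 hpa (log2 fold change -3.41 ± 0.90, adjusted p = 0.0132). Nos2.L lost its call without 3 dpa A or 6 hpa A (adjusted p = 0.0612 to 0.0958). Myd88.L, an adaptor of Toll-like receptors, was at 6.38, 1.95 and 8.63 CPM at 3 dpa, against 22.9, 16.3 and 37.1 CPM at 6 hpa (log2 fold change -2.12 ± 0.62, adjusted p = 0.0318). Myd88.L lost its call without 3 dpa A or B or 6 hpa A or C (adjusted p = 0.0705 to 0.148). Cxcl14.L, a chemokine, was at 33.5, 18.5 and 17.3 CPM at 3 dpa, against 66.1, 130.3 and 37.1 CPM at 6 hpa (log2 fold change -1.77 ± 0.43, adjusted p = 0.0069). Cxcl14.L lost its call without 3 dpa C or 6 hpa B (adjusted p = 0.0599 to 0.174). The groups did not overlap for these 3 genes. Ptgs2.S, the inducible enzyme of prostaglandin synthesis, chosen after its values were seen, was at 101, 64.6 and 98.3 CPM at 3 dpa, against 179.9, 164 and 232 CPM at 6 hpa (log2 fold change -1.12 ± 0.35, adjusted p = 0.0469). Ptgs2.S did not pass in any fit without 1 library (adjusted p = 0.0661 to 0.202). None of the 4 calls held without any 1 library: they were 1 to 2 without 1 library (fewest without 3 dpa A and 6 hpa A).

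Among leukocyte markers, lsp1, an actin-binding protein of leukocytes, was higher in both copies. Lsp1.L was at 264, 154 and 187 CPM at 3 dpa, against 90.04, 74.6 and 111 CPM at 6 hpa (log2 fold change 1.14 ± 0.34, adjusted p = 0.0325). Lsp1.L lost its call without 3 dpa A or C or 6 hpa A or B (adjusted p = 0.0804 to 0.228). Lsp1.S was at 154, 189 and 169 CPM at 3 dpa, against 64.9, 58.0 and 91.7 CPM at 6 hpa (log2 fold change 1.27 ± 0.38, adjusted p = 0.0327). Lsp1.S lost its call without 3 dpa A, B or C or 6 hpa A or B (adjusted p = 0.0673 to 0.168). Mpo.S, the myeloperoxidase of neutrophil granules, was at 14.5, 6.63 and 7.26 CPM at 3 dpa, against 29.6, 31.0 and 67.7 CPM at 6 hpa (log2 fold change -2.12 ± 0.60, adjusted p = 0.0289). Mpo.S lost its call without 3 dpa B or C or 6 hpa C (adjusted p = 0.0987 to 0.139). Mpo.L, its copy, was at 371, 254 and 242 CPM at 3 dpa, against 555, 412 and 635 CPM at 6 hpa and did not pass (log2 fold change -0.88 ± 0.34, adjusted p = 0.13). Cebpa.L, a transcription factor of myeloid and other cells, was at 13.2, 31.0 and 15.1 CPM at 3 dpa, against 42.6, 44.7 and 145 CPM at 6 hpa (log2 fold change -1.93 ± 0.51, adjusted p = 0.0148), and 6 hpa C was the highest library. Cebpa.L lost its call without 3 dpa A or C or 6 hpa C (adjusted p = 0.0804 to 0.254). Spi1.L and ptprc.L, defining markers of leukocytes, gave no call. Spi1.L averaged 12.36 ± 3.24 CPM at 3 dpa and 12.45 ± 4.46 CPM at 6 hpa (log2 fold change -0.02 ± 0.63, adjusted p = 0.993). Ptprc.L averaged 4.29 ± 1.64 CPM at 3 dpa and 4.47 ± 1.28 CPM at 6 hpa (log2 fold change -0.04 ± 1.04, adjusted p = 0.992). Both were chosen after their values were seen and do not speak for the list as a whole. Ptprc.L lay near the lowest detectable level of 6 hpa C, 3.27 CPM, and with so large an SE a moderate change could not be seen.

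Beneath the epidermis lies the basement membrane that anchors it, and hemidesmosomes tie its basal cells to it. Of 50 basement membrane and hemidesmosome genes 5 fell and 0 rose, 10% lower against 3.69% of all genes, while the median log2 fold change was -0.12. The summed level was 6308, 6947 and 6750 CPM at 3 dpa, against 8811, 8296 and 9936 CPM at 6 hpa, without overlap. At 0 mpa it was 6448 to 7073 CPM, which overlapped the sums at 3 dpa. Lama3.L, a chain of the laminin of epidermis, was at 16.6, 26.5 and 14.1 CPM at 3 dpa, against 171, 112 and 114 CPM at 6 hpa (log2 fold change -2.79 ± 0.48, adjusted p = 0.000116). Lamb3.S, another chain of the same laminin, was at 47.9, 30.8 and 53.2 CPM at 3 dpa, against 177, 135 and 189 CPM at 6 hpa (log2 fold change -1.92 ± 0.45, adjusted p = 0.0052). In both genes the groups did not overlap and the calls held without any 1 library. However, lamb3.S did not pass with DESeq2, and without both 6 hpa C and 3 dpa B its adjusted p was 0.0734. Their levels over time differed. Lama3.L averaged 14.9 ± 6.91 CPM at 0 mpa, 132 ± 33.4 CPM at 6 hpa, 63.4 ± 28.8 CPM at 1 dpa and 19.1 ± 6.56 CPM at 3 dpa. Lamb3.S averaged 0.0840 ± 0.146 CPM at 0 mpa, 167 ± 28.4 CPM at 6 hpa, 217 ± 67.3 CPM at 1 dpa and 44.0 ± 11.7 CPM at 3 dpa, with 3 dpa well above 0 mpa. Plec.S, the cytoskeletal linker plectin, was at 199.5, 173 and 165 CPM at 3 dpa, against 361, 626 and 302 CPM at 6 hpa (log2 fold change -1.26 ± 0.35, adjusted p = 0.0185). Plec.S lost its call without 3 dpa A, B or C or 6 hpa B (adjusted p = 0.0523 to 0.228). Itgb4.L, the integrin of hemidesmosomes, was at 355 ± 26.6 CPM at 3 dpa and 850.3 ± 229 CPM at 6 hpa (log2 fold change -1.26 ± 0.32, adjusted p = 0.0109). Itgb4.L lost its call without 3 dpa A or B or 6 hpa C (adjusted p = 0.0581 to 0.0695). Itga3.S, a laminin receptor, was at 30.5 ± 6.78 CPM at 3 dpa and 71.2 ± 23.9 CPM at 6 hpa (log2 fold change -1.24 ± 0.38, adjusted p = 0.0436). Itga3.S lost its call without 3 dpa A, B or C or 6 hpa A or B (adjusted p = 0.0652 to 0.23). The integrins were chosen after their values were seen. Counts of calls varied: the 5 lower members were 2 to 5 without 1 library (fewest without 3 dpa A and 3 dpa B).

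Epidermal genes that differed were mostly lower. Of 76 markers 13 fell and 1 rose, 17.1% lower against 3.69% of all genes, the median log2 fold change was -0.55, and the summed level was 10620, 9840 and 10570 CPM at 3 dpa, against 17280, 16210 and 18350 CPM at 6 hpa, without overlap. The epidermal sum at 0 mpa was 10630 to 12150 CPM, close to that at 3 dpa and below every 6 hpa library. Keratins of the krt12 family moved in opposite directions. Krt12.4.S was at 66.9, 143 and 24.7 CPM at 3 dpa, against 968, 665 and 1173 CPM at 6 hpa (log2 fold change -3.58 ± 0.59, adjusted p = 2e-04). Krt12.4.L was at 23.7, 27.1 and 7.85 CPM at 3 dpa, against 163, 106 and 175 CPM at 6 hpa (log2 fold change -2.91 ± 0.40, adjusted p = 1e-06). Krt12.2.L was at 88.6, 65.2 and 93.0 CPM at 3 dpa, against 23.04, 13.8 and 13.1 CPM at 6 hpa (log2 fold change 2.27 ± 0.45, adjusted p = 0.000526). Its copy krt12.2.S was at 759.5, 603 and 635 CPM at 3 dpa, against 395, 198 and 261 CPM at 6 hpa and just missed the threshold (log2 fold change 1.22 ± 0.39, adjusted p = 0.0548). Itln1.L, a secreted intelectin of the tadpole skin, was at 186, 149 and 181 CPM at 3 dpa, against 1207, 634 and 581 CPM at 6 hpa (log2 fold change -2.23 ± 0.37, adjusted p = 3.33e-05). The 4 called genes held without any 1 library and showed no overlap, although reads of tandem krt12 genes may have been shared. At 0 mpa krt12.4.S averaged 858 ± 71.4 CPM and krt12.2.S 113 ± 25.4 CPM.

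Other epidermal markers, chosen after their values were seen, included cldn7.L, a tight junction protein, at 215, 185 and 213 CPM at 3 dpa, against 784, 699 and 757 CPM at 6 hpa (log2 fold change -1.87 ± 0.37, adjusted p = 0.000605). Trim29.L was at 81.6, 86.8 and 73.4 CPM at 3 dpa, against 309, 257 and 427 CPM at 6 hpa (log2 fold change -2.03 ± 0.34, adjusted p = 3.16e-05). Both held without any 1 library and were at 138 ± 18.6 CPM and 88.6 ± 20.5 CPM at 0 mpa. Tp63.S, the transcription factor of basal epidermal cells, was at 116, 119 and 126 CPM at 3 dpa, against 247, 237 and 376 CPM at 6 hpa (log2 fold change -1.25 ± 0.34, adjusted p = 0.019). Tp63.S lost its call without 3 dpa A, B or C or 6 hpa C (adjusted p = 0.0625 to 0.104). Epcam.L, an adhesion molecule of epithelia, was at 142, 43.3 and 86.3 CPM at 3 dpa, against 301, 196 and 178 CPM at 6 hpa (log2 fold change -1.31 ± 0.39, adjusted p = 0.0308). Epcam.L lost its call without 3 dpa B or C or 6 hpa A (adjusted p = 0.114 to 0.209). In all, 8 of the 13 lower members held without any 1 library. In bulk samples fewer cells of a type and less RNA per cell cannot be told apart, here and for the tissues below.

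Skeletal muscle made the largest block of lower genes. Of 96 muscle genes 51 fell (53.1% against 3.69% of all genes) and 0 rose, and the median log2 fold change was -1.74, with 12 of 96 values positive. The summed level was 26930, 45260 and 38340 CPM at 3 dpa, against 129200, 115300 and 169200 CPM at 6 hpa, so that muscle genes held between 26930 and 45260 of each 1000000 scaled counts at 3 dpa and between 115300 and 169200 at 6 hpa. Since CPM are shares of a library, so large a fall can raise other shares. TMM scaling is meant to correct for this, and the part of the muscle genes in the other changes was not tested. Prkag3.L, a regulatory subunit of AMP kinase in muscle, was at 0 CPM in all 3 libraries at 3 dpa, against 6.33, 10.5 and 5.46 CPM at 6 hpa, at least 43.8-fold lower (adjusted p = 2.36e-05). Acta1.S, skeletal alpha-actin, was at 0.156, 0 and 0.589 CPM at 3 dpa, against 14.1, 5.83 and 13.1 CPM at 6 hpa (log2 fold change -5.33 ± 0.83, adjusted p = 1.21e-05). Both held without any 1 library. Unc45b.S, a chaperone of myosin, was at 0.156, 0 and 0.981 CPM at 3 dpa, against 12.13, 2.56 and 1.09 CPM at 6 hpa (log2 fold change -3.92 ± 1.17, adjusted p = 0.0483), with 6 hpa A well above 6 hpa B and C. Unc45b.S lost its call without 3 dpa A or B or 6 hpa A or B (adjusted p = 0.0504 to 0.414).

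The most abundant sarcomere genes, chosen after their values were seen, fell as well. Actc1.L, cardiac alpha-actin and the main actin of tadpole muscle, was at 8353, 14760 and 10950 CPM at 3 dpa, against 37070, 37470 and 86440 CPM at 6 hpa (log2 fold change -2.24 ± 0.40, adjusted p = 0.000115). Mylpf.L, a myosin light chain of fast muscle, was at 1464, 2280 and 2135 CPM at 3 dpa, against 7275, 6769 and 6386 CPM at 6 hpa (log2 fold change -1.80 ± 0.36, adjusted p = 0.000528). Tnni2.L, a fast troponin, was at 172, 248 and 266 CPM at 3 dpa, against 1758, 1171 and 764 CPM at 6 hpa (log2 fold change -2.43 ± 0.39, adjusted p = 2e-05). Groups were well apart in these 3 genes. The calcium pump gene atp2a1.L averaged 1689 ± 465 CPM at 3 dpa and 7797 ± 2406 CPM at 6 hpa (log2 fold change -2.21 ± 0.39, adjusted p = 7.89e-05). Creatine kinase ckm.L averaged 2432 ± 444 CPM at 3 dpa and 7339 ± 1633 CPM at 6 hpa (log2 fold change -1.59 ± 0.36, adjusted p = 0.00276). Glycogen phosphorylase pygm.S averaged 16.1 ± 4.61 CPM at 3 dpa and 127 ± 14.97 CPM at 6 hpa (log2 fold change -2.98 ± 0.36, adjusted p = 5.75e-08). Myod1.S, the myogenic transcription factor, was at 32.8, 80.6 and 41.6 CPM at 3 dpa, against 129, 169 and 216 CPM at 6 hpa (log2 fold change -1.72 ± 0.38, adjusted p = 0.00205). All of these held without any 1 library, as did 30 of the 51 lower members. Ryr1.L, the calcium release channel, was at 66.5, 49.0 and 91.2 CPM at 3 dpa, against 253, 222 and 78.6 CPM at 6 hpa (log2 fold change -1.44 ± 0.40, adjusted p = 0.0201), where 6 hpa C overlapped with the 3 dpa libraries. Ryr1.L lost its call without 3 dpa A or B or 6 hpa A or B (adjusted p = 0.0819 to 0.156). Without both 6 hpa C and 3 dpa B 48 muscle genes fell.

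**Figure D3:**
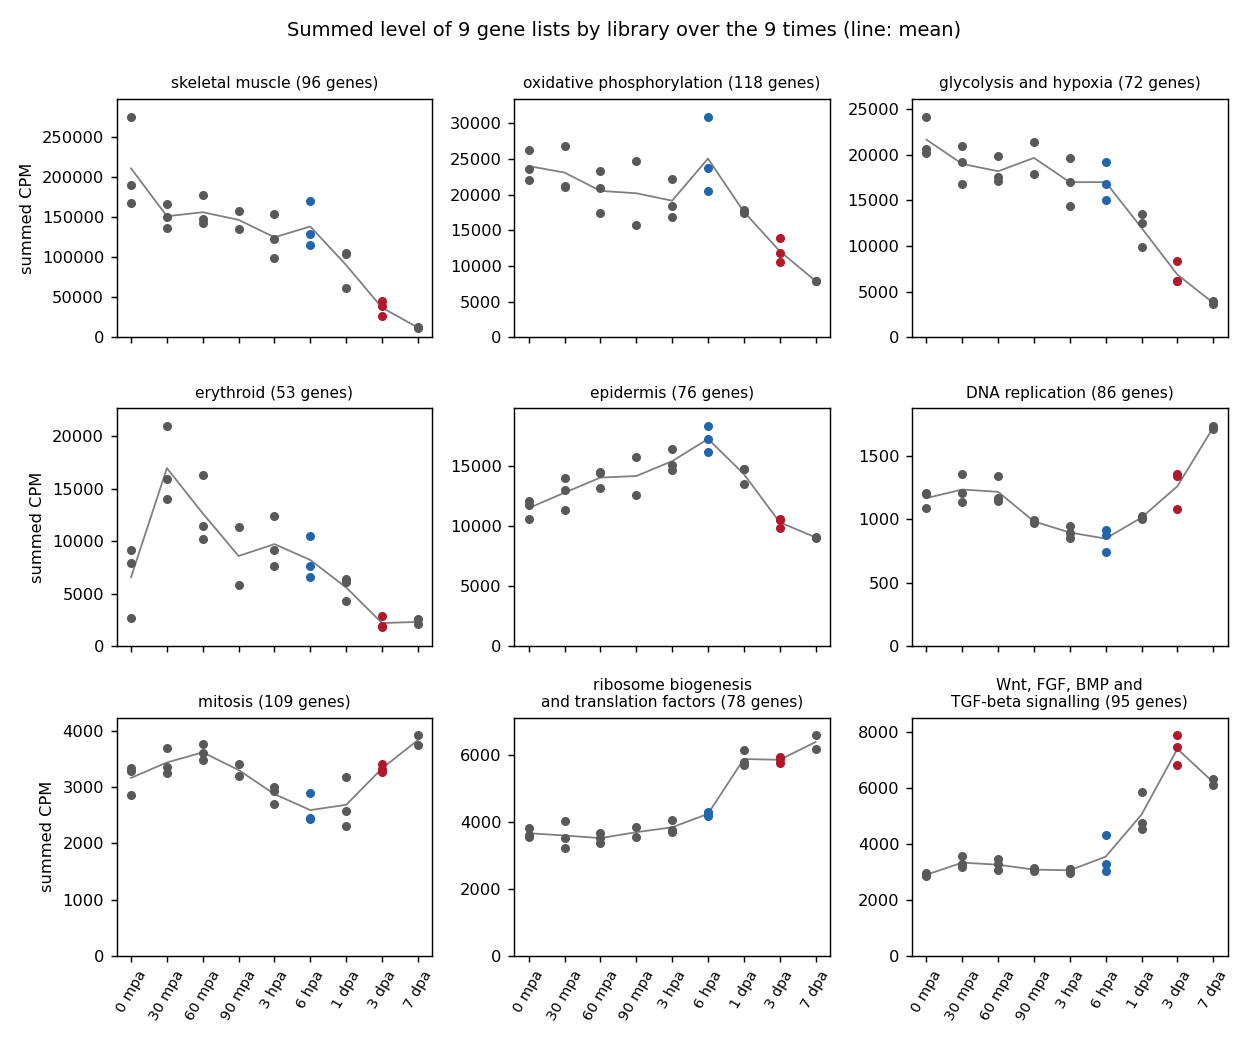
Summed level in CPM (linear axes from 0) of 9 gene lists in each library at the 9 times from 0 mpa to 7 dpa, with 3 dpa in red, 6 hpa in blue and a line through the means; the points of 90 mpa C and 7 dpa C, both very shallow, are left out. The muscle sum lies between 26930 and 45260 CPM in the 3 dpa libraries and between 115300 and 169200 CPM in the 6 hpa libraries, while the sum of Wnt, FGF, BMP and TGF-beta genes lies between 6825 and 7877 CPM at 3 dpa and between 3033 and 4313 CPM at 6 hpa. Most of the difference in the Wnt, FGF, BMP and TGF-beta sum is that of a single gene, tgfbi.L.

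Genes of energy metabolism were among those that fell. Of 72 genes of glycolysis and hypoxia 17 fell and 0 rose, 23.6% against 3.69% of all genes (median log2 fold change -0.80), and the summed level was 6117, 8312 and 6177 CPM at 3 dpa, against 16790, 15060 and 19170 CPM at 6 hpa. Pgam2.S, the muscle form of phosphoglycerate mutase, was at 1.09, 26.7 and 4.12 CPM at 3 dpa, against 68.9, 52.2 and 139.7 CPM at 6 hpa (log2 fold change -3.01 ± 0.69, adjusted p = 0.00861). Pgam2.L was at 27.2, 84.1 and 31.0 CPM at 3 dpa, against 283, 287 and 395 CPM at 6 hpa (log2 fold change -2.76 ± 0.38, adjusted p = 1.34e-06). Aldoc.L, an aldolase, was at 19.5, 28.7 and 20.4 CPM at 3 dpa, against 201, 131 and 153 CPM at 6 hpa (log2 fold change -2.82 ± 0.35, adjusted p = 9.6e-08). These 3 held without any 1 library and showed no overlap. Pfkm.L, the muscle phosphofructokinase, was at 2.96, 0.585 and 4.91 CPM at 3 dpa, against 26.6, 23.8 and 9.82 CPM at 6 hpa (log2 fold change -2.87 ± 0.81, adjusted p = 0.0327). Pfkm.L lost its call without 3 dpa A or B or 6 hpa A or B (adjusted p = 0.096 to 0.124). The 17 lower members were 11 to 16 without 1 library (fewest without 3 dpa A). Pgam2 and, among the further lower members, eno3.L and aldoa.L are also on the muscle list. Slc2a1, a glucose transporter of many cell types and not on the muscle list, was lower in both copies. Slc2a1.L averaged 53.9 ± 12.6 CPM at 3 dpa and 228 ± 19.8 CPM at 6 hpa (log2 fold change -2.08 ± 0.36, adjusted p = 7.14e-05). Slc2a1.S averaged 27.9 ± 6.67 CPM at 3 dpa and 103 ± 31.7 CPM at 6 hpa (log2 fold change -1.86 ± 0.35, adjusted p = 0.000213). Ldha.S, lactate dehydrogenase A, was at 21.2, 61.9 and 38.1 CPM at 3 dpa, against 251, 147 and 254 CPM at 6 hpa (log2 fold change -2.43 ± 0.39, adjusted p = 2.11e-05). Slc2a1 and ldha.S, chosen after their values were seen, held without any 1 library. Muscle genes, of which 51 of 96 fell with summed levels that did not overlap, moved the same way, and their part in the falls of glycolysis and oxidative phosphorylation was not tested. Slc2a1.L had been at 38.2 ± 7.52 CPM at 0 mpa, while ldha.S had been at 320.1 ± 54.3 CPM.

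A smaller share of the oxidative phosphorylation genes was called, although their median was lower than that of the glycolysis list. Of 118 genes 17 fell (14.4%, against 23.6% of the glycolysis list and 3.69% of all genes) and 0 rose, but the fitted value was negative for all except 2, and the median log2 fold change was -1.01. Their summed level was 10540, 13940 and 11770 CPM at 3 dpa, against 23800, 20470 and 30920 CPM at 6 hpa. None of the 17 calls held without any 1 library: the count was 2, 11 and 7 without 3 dpa A, B and C and 7, 12 and 16 without 6 hpa A, B and C. Without 90 mpa C and 7 dpa C, which belong to other times, it was 41, and without both 6 hpa C and 3 dpa B it was 7. Without all 4 of these and 1 dpa B, left out after the data were seen, it was 67. Uqcrh.L, a subunit of complex III, was at 0.311, 2.15 and 3.92 CPM at 3 dpa, against 16.0, 9.32 and 3.27 CPM at 6 hpa (log2 fold change -2.25 ± 0.70, adjusted p = 0.0475), with overlapping groups. Uqcrh.L lost its call without 3 dpa A or B or 6 hpa A or B (adjusted p = 0.091 to 0.314). Atp5me.S, a subunit of ATP synthase, was at 8.87, 2.54 and 6.48 CPM at 3 dpa, against 30.6, 15.2 and 15.3 CPM at 6 hpa (log2 fold change -1.79 ± 0.55, adjusted p = 0.0435). Atp5me.S lost its call without 3 dpa B or C or 6 hpa A or B (adjusted p = 0.0506 to 0.302). Uqcrc2.S, of complex III, was at 10.1, 18.9 and 7.65 CPM at 3 dpa, against 51.2, 34.7 and 22.9 CPM at 6 hpa (log2 fold change -1.60 ± 0.42, adjusted p = 0.0117). Uqcrc2.S lost its call without 3 dpa A or C or 6 hpa A (adjusted p = 0.0742 to 0.149). Atp5f1b.L, the catalytic beta subunit of ATP synthase, chosen after its values were seen, was at 138, 129 and 116 CPM at 3 dpa, against 368, 321 and 308 CPM at 6 hpa (log2 fold change -1.38 ± 0.34, adjusted p = 0.00794). Atp5f1b.L lost its call without 3 dpa C (adjusted p = 0.063).

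Red blood cell genes were lower too. Of 53 erythroid markers 15 fell and 0 rose, 28.3% against 3.69% of all genes, the median log2 fold change was -1.15, and the summed level was 1922, 2936 and 1827 CPM at 3 dpa, against 6578, 10470 and 7641 CPM at 6 hpa, without overlap. Hba2.L, an alpha-globin, was at 66.9, 125 and 45.5 CPM at 3 dpa, against 423, 858 and 781 CPM at 6 hpa (log2 fold change -3.12 ± 0.48, adjusted p = 2.35e-05). Slc25a37.S, the iron importer of mitochondria, was at 2.02, 0.976 and 0 CPM at 3 dpa, against 7.56, 7.22 and 16.4 CPM at 6 hpa (log2 fold change -3.24 ± 0.86, adjusted p = 0.0136). Slc25a37.S lost its call without 3 dpa C or 6 hpa C (adjusted p = 0.0606 to 0.0967). Lmo2.S, a transcription cofactor of blood and endothelium, was at 0 CPM in all 3 libraries at 3 dpa, against 5.45, 4.43 and 5.46 CPM at 6 hpa, at least 28-fold lower (adjusted p = 0.000714). Hba2.L and lmo2.S held without any 1 library. Of genes chosen after their values were seen, alas2, which starts heme synthesis in the red blood cell, was lower in both copies. Alas2.L was at 37.8, 57.5 and 30.6 CPM at 3 dpa, against 138, 272 and 296 CPM at 6 hpa (log2 fold change -2.48 ± 0.41, adjusted p = 3.51e-05). Alas2.S was at 8.40, 10.5 and 5.50 CPM at 3 dpa, against 36.6, 78.5 and 60.03 CPM at 6 hpa (log2 fold change -2.83 ± 0.50, adjusted p = 0.000156). Slc4a1.S, the anion exchanger of red cells, which the kidney and ionocytes also use, was at 18.8 ± 8.43 CPM at 3 dpa and 92.0 ± 16.2 CPM at 6 hpa (-2.29 ± 0.38, adjusted p = 3.38e-05). In all, 12 of the 15 lower members held without any 1 library. At 6 hpa, library B had the highest erythroid and the lowest muscle sum of the 3. The erythroid sum also varied widely elsewhere in the series. It ranged from 2714 to 9161 CPM at 0 mpa, which overlapped the 3 dpa libraries, and from 14020 to 20960 CPM at 30 mpa.

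Endothelial markers gave 0 higher and 1 lower of 41, 2.44% lower against 3.69% of all genes and 0% higher against 1.09%. These shares are near those of all genes. The median log2 fold change was -0.02, and summed levels were 369.8, 383 and 511 CPM at 3 dpa, against 408, 383 and 379.8 CPM at 6 hpa, with overlapping groups. The lower member was lmo2.S, which is on both lists.

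Called genes of notochord and cartilage went in opposite directions. Of 49 genes 5 rose and 6 fell, against 1.09% higher and 3.69% lower of all genes. The median log2 fold change was -0.16, and the summed level was 8249, 8930 and 9386 CPM at 3 dpa, against 13290, 11990 and 17390 CPM at 6 hpa, without overlap. Krt8 and krt18 are on the list too, but krt8.1.S and krt18.1.S, which rose and are given at the end, were not matched to them. The risers counted were both copies of not and tbxt, described above, and foxa1.L, a forkhead factor of endoderm and notochord, at 34.7, 61.9 and 16.1 CPM at 3 dpa, against 8.79, 9.32 and 13.1 CPM at 6 hpa (log2 fold change 1.90 ± 0.58, adjusted p = 0.0419). Foxa1.L lost its call without 3 dpa A or B or 6 hpa A, B or C (adjusted p = 0.0658 to 0.255). Lower members were genes of the cartilage and notochord matrix and foxj1.S, a factor of motile cilia. Cnmd, chondromodulin, was lower in both copies. Cnmd.S was at 0.623, 0 and 0 CPM at 3 dpa, against 5.80, 8.62 and 19.6 CPM at 6 hpa (log2 fold change -5.40 ± 1.01, adjusted p = 0.000222). Cnmd.L was at 64.9, 49.95 and 87.7 CPM at 3 dpa, against 244, 190.2 and 280.5 CPM at 6 hpa (log2 fold change -1.81 ± 0.36, adjusted p = 0.000544). Matn4.S, a matrilin, was at 11.1, 4.88 and 10.2 CPM at 3 dpa, against 61.9, 24.5 and 36.0 CPM at 6 hpa (log2 fold change -2.23 ± 0.46, adjusted p = 0.000797). These 3 held without any 1 library and showed no overlap. Matn4.L was at 36.1 ± 2.88 CPM at 3 dpa and 118 ± 40.9 CPM at 6 hpa (log2 fold change -1.73 ± 0.43, adjusted p = 0.00878). Matn4.L lost its call without 6 hpa A (adjusted p = 0.0696). Col2a1.L, the main collagen of cartilage and of the notochord sheath, was at 1669, 1895 and 2053 CPM at 3 dpa, against 3784, 3257 and 5174 CPM at 6 hpa (log2 fold change -1.12 ± 0.34, adjusted p = 0.0409). Col2a1.L lost its call without 3 dpa A, B or C or 6 hpa A or C (adjusted p = 0.0879 to 0.183). Foxa1.L and col2a1.L were chosen after their values were seen. Counts of calls varied: the 5 higher members were 3 to 5 without 1 library (fewest without 3 dpa A, 6 hpa A and 6 hpa B) and the 6 lower members 4 to 6 without 1 library (fewest without 6 hpa A).

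Neural and glial markers gave 2 higher and 5 lower genes of 69, 2.9% higher against 1.09% of all genes and 7.25% lower against 3.69%. The summed level was 1865, 2112 and 1756 CPM at 3 dpa, against 1525, 1376 and 2593 CPM at 6 hpa, with overlapping groups. Their median log2 fold change was -0.43, but 0.11 in the fit of the 6 libraries alone, whose filter kept 42 of them. Tubb2b.L, a tubulin of young neurons, was at 54.0, 56.2 and 43.4 CPM at 3 dpa, against 18.3, 10.5 and 5.46 CPM at 6 hpa (log2 fold change 2.07 ± 0.49, adjusted p = 0.00452), and held without any 1 library, but not without both 6 hpa C and 3 dpa B (adjusted p = 0.0761). Sox3.S, a factor of neural progenitors that is also on the posterior list, was at 20.4, 52.3 and 28.6 CPM at 3 dpa, against 8.44, 7.46 and 18.6 CPM at 6 hpa (log2 fold change 1.68 ± 0.50, adjusted p = 0.0342), and 3 dpa B was the highest. Sox3.S lost its call without 3 dpa B or C or 6 hpa A or B (adjusted p = 0.061 to 0.237). Map2.S, a microtubule protein of dendrites, was at 1.40, 0 and 1.37 CPM at 3 dpa, against 5.98, 17.9 and 0 CPM at 6 hpa (log2 fold change -3.18 ± 0.76, adjusted p = 0.00528). Map2.S lost its call without 6 hpa B (adjusted p = 0.206). Fabp7.L, a fatty acid binding protein of radial glia, was at 1.25, 7.999 and 1.18 CPM at 3 dpa, against 17.6, 14.7 and 4.37 CPM at 6 hpa (log2 fold change -1.93 ± 0.58, adjusted p = 0.036). Fabp7.L lost its call without 3 dpa A or C or 6 hpa A or B (adjusted p = 0.108 to 0.199). Groups overlapped for map2.S and fabp7.L. The other lower members, nefl.S, a neurofilament, and the glial potassium channel gene kcnj10.L were chosen after their values were seen. Nefl.S was at 0 CPM in all 3 libraries at 3 dpa, against 4.22, 0 and 1.09 CPM at 6 hpa (adjusted p = 0.0326). Nefl.S lost its call without 3 dpa A, B or C or 6 hpa A (adjusted p = 0.0814 to 0.505). Kcnj10.L was at 0 CPM in all 3 libraries at 3 dpa, against 2.64, 4.19 and 0 CPM at 6 hpa (adjusted p = 0.0108). Kcnj10.L lost its call without 3 dpa A or C (adjusted p = 0.0507 to 0.0569). Sox11.L was at 41.7, 55.6 and 44.5 CPM at 3 dpa, against 77.2, 81.3 and 211 CPM at 6 hpa (log2 fold change -1.35 ± 0.40, adjusted p = 0.0317), and 6 hpa C was the highest library. Sox11.L lost its call without 3 dpa A or C or 6 hpa C (adjusted p = 0.109 to 0.372). At 6 hpa C, where 3 counts stand for 3.27 CPM, low genes such as map2.S are poorly measured.

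Of 36 pigment cell and neural crest genes 4 fell and 1 rose, 11.1% lower against 3.69% of all genes and 2.78% higher against 1.09%. The median log2 fold change of the list was 0.02, with 18 of 36 values positive. Its summed level was 1554, 1639 and 1610 CPM at 3 dpa, against 1069, 1249 and 1435 CPM at 6 hpa, higher in every 3 dpa library. Of these sums tfap2b.L, given below, held 344, 303 and 378 CPM at 3 dpa and 155, 165 and 95.0 CPM at 6 hpa. Much of the difference was thus that of a single gene, and the sum does not speak for the list as a whole. Pmel.S, a protein of melanosomes, was at 4.36, 6.24 and 6.67 CPM at 3 dpa, against 26.4, 16.8 and 19.6 CPM at 6 hpa (log2 fold change -1.87 ± 0.45, adjusted p = 0.00563). Pmel.S lost its call without 3 dpa A or 6 hpa A (adjusted p = 0.052 to 0.0652). Tyrp1.L, an enzyme of melanin synthesis, was at 18.7, 15.8 and 17.1 CPM at 3 dpa, against 49.4, 48.0 and 52.4 CPM at 6 hpa (log2 fold change -1.53 ± 0.42, adjusted p = 0.0185). Tyrp1.L lost its call without 3 dpa A, B or C or 6 hpa A (adjusted p = 0.0523 to 0.0724). Pnp.L, a purine enzyme that marks iridophores in fish, was at 10.6, 5.66 and 4.91 CPM at 3 dpa, against 38.3, 29.4 and 27.3 CPM at 6 hpa (log2 fold change -2.17 ± 0.47, adjusted p = 0.0015), and held without any 1 library. Tfap2b.L, an AP-2 factor of neural crest and epidermis, was at 344, 303 and 378 CPM at 3 dpa, against 155, 165 and 95.0 CPM at 6 hpa (log2 fold change 1.29 ± 0.34, adjusted p = 0.0142). Tfap2b.L lost its call without 3 dpa A or C or 6 hpa C (adjusted p = 0.0589 to 0.0957). Ednrb.L, an endothelin receptor of neural crest chosen after its values were seen, was at 0.156, 0 and 0 CPM at 3 dpa, against 3.17, 2.33 and 0 CPM at 6 hpa (adjusted p = 0.037). Ednrb.L lost its call without 3 dpa A, B or C or 6 hpa A or B (adjusted p = 0.0591 to 0.152). The first 4 of these genes showed no overlap. Of 71 heat shock and protein folding genes 3 fell and 0 rose, 4.23% lower and thus close to the share of all genes. Hspb1.S, a small heat shock protein that is also on the muscle list, was at 14.9, 7.999 and 15.5 CPM at 3 dpa, against 38.9, 39.6 and 39.3 CPM at 6 hpa (log2 fold change -1.61 ± 0.42, adjusted p = 0.0115). Hspb1.S lost its call without 3 dpa B (adjusted p = 0.0787). Dnajb5.S, a co-chaperone, was at 15.6, 33.0 and 13.9 CPM at 3 dpa, against 70.9, 56.9 and 55.7 CPM at 6 hpa (log2 fold change -1.56 ± 0.36, adjusted p = 0.00385). Dnajb5.S lost its call without 3 dpa C (adjusted p = 0.0605). Ddit3.S, a factor of the stress response of the endoplasmic reticulum, also chosen after its values were seen, was at 0 CPM in all 3 libraries at 3 dpa, against 3.34, 1.40 and 1.09 CPM at 6 hpa (adjusted p = 0.0304). Ddit3.S lost its call without 3 dpa A, B or C or 6 hpa A (adjusted p = 0.0799 to 0.121). Of the markers of trunk and head organs 8 could be tested. Their summed levels were 129, 147 and 92.0 CPM at 3 dpa, against 98.5, 85.3 and 176 CPM at 6 hpa, with overlapping groups. The median log2 fold change was 1.13, with 6 of 8 values positive, but it was 0.18 without 3 dpa A. Of the 8 genes 1 rose and 0 fell, against 1.09% higher and 3.69% lower of all genes. The gene that rose was tf.L, the iron carrier transferrin, at 20.7, 21.9 and 18.6 CPM at 3 dpa, against 3.34, 0 and 1.09 CPM at 6 hpa (log2 fold change 3.65 ± 1.01, adjusted p = 0.0208). Tf.L lost its call without 3 dpa A or 6 hpa B or C (adjusted p = 0.0553 to 0.14).

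**Figure D4:**
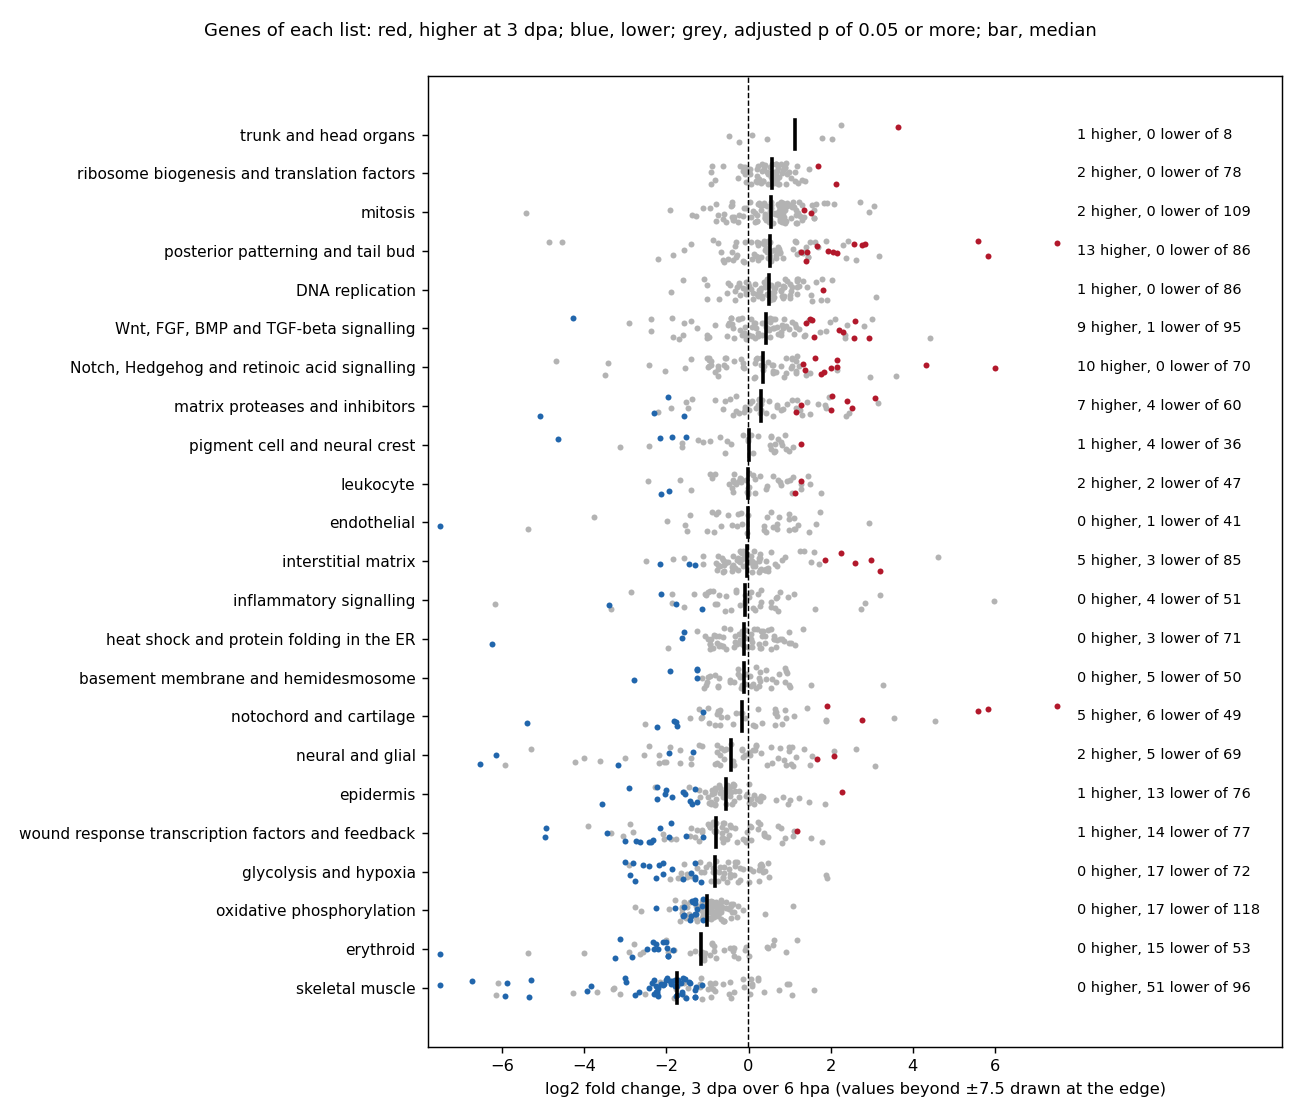
Log2 fold change, 3 dpa over 6 hpa, of every tested member of the 23 gene lists, 1 row a list and 1 point a gene, sorted by the list's median (black bar); red points are members higher at 3 dpa, blue points lower members and grey points members with an adjusted p of 0.05 or more, with the counts at the right; values beyond 7.5 in size are drawn at the edge, and the dashed line is the median of all genes, -0.02. Skeletal muscle, with 51 lower members of 96 and a median of -1.74, lies at the bottom, and the growth and posterior lists, with medians of 0.50 to 0.58, near the top.

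The largest falls outside the lists were those of single gene copies nearly absent at 3 dpa. Cat2.L was at 0 CPM in all 3 libraries at 3 dpa, against 17.4, 9.79 and 18.6 CPM at 6 hpa, at least 80.5-fold lower (adjusted p = 9.38e-09), the smallest adjusted p of the 10 largest falls. Spnl.S was at 0 CPM in all 3 libraries at 3 dpa, against 3.87, 6.53 and 10.9 CPM at 6 hpa, at least 30.6-fold lower (adjusted p = 0.00997). Spnl.S lost its call without 3 dpa A (adjusted p = 0.0527). Togaram2.S, a regulator of microtubules in cilia, was at 0 CPM in all 3 libraries at 3 dpa, against 7.91, 2.56 and 5.46 CPM at 6 hpa, at least 31.1-fold lower (adjusted p = 0.000317). For 5 further genes 1 to 3 reads were seen at 3 dpa. Reads at 6 hpa were 160 times as frequent (95% counting interval 28.2 to 6400) for tpd52l1.L, 118 times as frequent (95% counting interval 20.5 to 4710) for fam78b.L and 124 times as frequent (95% counting interval 21.6 to 4950) for tpgs1.S, a subunit of a tubulin polyglutamylase. They were 99.3 times as frequent (95% counting interval 17.2 to 3980) for vsnl1.S, a calcium sensor of neurons, and 56.5 times as frequent (95% counting interval 18.9 to 278) for otos.L. The adjusted p was 4.01e-05 for tpd52l1.L, 0.000187 for fam78b.L, 0.00147 for tpgs1.S, 0.00178 for vsnl1.S and 9.48e-05 for otos.L. Apart from spnl.S, all of these held without any 1 library. None had a library at 3 dpa as high as the lowest at 6 hpa, but this was a condition for choosing them. Several of their other copies were tested and did not pass. These were togaram2.L (adjusted p = 0.102), cat2.S (0.105), tpgs1.L (0.653), fam78b.S (0.903) and spnl.L (0.931). For these genes the fall is thus that of the named copy and not of the gene as a whole. Otos.S was lower too (adjusted p = 0.000359). In all, 61 of the 821 lower genes had no read at 3 dpa, and 5 of the 243 higher genes had none at 6 hpa.

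Copies of a gene moved alike where both were called. In 5791 pairs both the .L and the .S copy were tested. Both were called in 114 pairs, 23 of them higher in both and 91 lower in both, and 0 moved in opposite directions. In 399 further pairs 1 copy was called, and the other copy had the same sign in 330. The share of same signs over all 5791 pairs was not counted, so these counts stand without a background. Across pairs, Pearson's r of the log2 fold change between copies was 0.374, and 0.584 over the 3977 pairs with at least 5 CPM in both, as a description, since copies may share reads in counting. Some named genes differed between copies in the fitted values. Mycn.L (2.14 ± 0.62, adjusted p = 0.029) and wnt11.S (2.57 ± 0.74, adjusted p = 0.0283) passed, while wnt11.L (-0.15 ± 0.52, adjusted p = 0.933) and mycn.S (-0.61 ± 0.93, adjusted p = 0.824) did not. The difference between copies was not tested.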

How the data were processed

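The labels describe 20 pooled animals a library, 100 ng of total RNA, the Lexogen SENSE Total RNA-Seq kit and paired reads. Tools listed in the submitters' processing notes are DESeq2 1.32.0, R 4.1.0, HTSeq 0.6.1p1 and STAR 2.7.9a. Build, annotation and strandedness of counting were not given in the sources used here. The authors deposited raw counts per gene for 29776 symbols, of which 29771 match RefSeq. With edgeR 4.0.16, limma 3.58.1 and R 4.3.3, 1 quasi-likelihood model with TMM scaling and edgeR's filter on low counts was fitted over all 27 libraries, which share 1 estimate of the spread. The contrast was 3 dpa minus 6 hpa, with Benjamini-Hochberg adjustment over all genes tested and a threshold of 0.05, and the SE is the size of the log2 fold change divided by the root of F. DESeq2 1.42.0 was an alternative.

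Where a group had no read, a bound against 3 counts over the group is given, and where it had 1 to 3 reads a ratio with an exact 95% interval, which covers counting error only. In counts simulated from these libraries, with 200 genes changed, 4.84% of 2-fold, 65.7% of 4-fold and 85.3% of 8-fold changes were called, and 6 of 21434 unchanged genes. Changed genes were drawn from those averaging at least 5 CPM, and every other gene had 1 mean over all 27 libraries. Libraries that depart from their group, such as 3 dpa B, were not simulated, so rates in the real data may differ.

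Genes named are the 10 largest changes in each direction among called genes with at least 5 CPM and no overlap, and up to 3 called members of each list in each direction. Their other copies are given for some of them only. Copies left out include some that did not pass, such as crabp2.L (adjusted p = 0.153), sp5l.S (0.196), htra1.S (0.404) and mmp11.S (0.551). Prkag3.S, also left out, passed (adjusted p = 1.22e-06). Agreement between copies can thus not be read from the named genes. Further genes are said to have been chosen after their values were seen. The 23 gene lists and the comparison were chosen with earlier results of these data known. List symbols were matched exactly, apart from the copy suffix. Numbered genes such as gdf11.1.L, krt8.1.S, krt18.1.S and ocm4.5.L are therefore not in the list counts, although gdf11, krt8, krt18 and ocm4 are listed. Promoter motifs were planned but not searched, since no sequences were used here. Results of some called list members are not reported here, although the counts include them.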

Additional observations from a re-analysis of the deposited data

How the results depend on the processing

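The 1064 calls (243 higher, 821 lower) were 1105 with RLE scaling (335 and 770), 1191 with no filter (299 and 892) and 1274 with DESeq2 (425 and 849). The 6 libraries alone gave 680 (229 and 451), and glmTreat against a fold of 2 gave 251 (45 and 206), as a test of a larger change. Leaving out 90 mpa C and 7 dpa C gave 1831 (560 and 1271), and leaving out 6 hpa C and 3 dpa B gave 705 (139 and 566). Leaving out all 4 of these and also 1 dpa B, chosen after seeing the data, gave 2305 (720 and 1585). Leaving out 1 library at a time gave 682 to 877 calls (129 to 176 higher, 547 to 701 lower), fewest without 3 dpa C. The cause of these shifts was not tested. With the replicate letter as a block there were 1059 calls (252 and 807) over 27 libraries and 316 (91 and 225) over the 6 alone; the deviations of same-lettered libraries correlated at 0.226 for A, -0.166 for B and -0.177 for C over 14128 genes, so the letters were not treated as pairs. Of the 84 genes named by rule, 0 changed sign under any of these alternatives, and 29 were called under all except glmTreat. List medians near 0 (leukocyte, endothelial, interstitial matrix, pigment cell, heat shock, basement membrane, notochord and cartilage) changed sign under some alternatives. Depth limits low genes most in 6 hpa C, where 3 counts stand for 3.27 CPM.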

Other observations

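Further groups of genes, put together after the values were seen, moved at 3 dpa relative to 6 hpa, and their counts are descriptions of genes already known to have moved. Of 71 genes of multiciliated cells, the skin cells whose beating cilia move fluid over the tadpole, 12 fell and 0 rose, and the median log2 fold change was -1.30. The lower share was 16.9%, against 3.69% of all genes, which is no test of a list put together in this way. Tekt3.L, a tektin of the ciliary axoneme, was at 2.33, 1.76 and 5.102 CPM at 3 dpa, against 28.3, 17.0 and 36.0 CPM at 6 hpa (log2 fold change -3.11 ± 0.56, adjusted p = 0.000119). Tekt3.S was at 0, 1.17 and 0.589 CPM at 3 dpa, against 9.14, 6.76 and 16.4 CPM at 6 hpa (log2 fold change -4.13 ± 0.79, adjusted p = 0.00034). Foxj1.S, the master regulator of motile cilia, was at 12.9, 10.2 and 13.7 CPM at 3 dpa, against 34.1, 41.2 and 52.4 CPM at 6 hpa (log2 fold change -1.77 ± 0.37, adjusted p = 0.00105), while foxj1.L, at 16.8, 40.4 and 15.5 CPM at 3 dpa, against 21.98, 20.5 and 51.3 CPM at 6 hpa, did not pass (log2 fold change -0.30 ± 0.43, adjusted p = 0.811). In 7 of the 12 lower members the call held without any 1 library. Of 41 genes of ionocytes, skin cells that move ions and acid, 15 fell (36.6% against 3.69% of all genes) and 0 rose, with a median of -1.31. Slc26a7.L, an anion exchanger, was at 0, 0 and 0.981 CPM at 3 dpa, against 10.6, 10.9 and 13.1 CPM at 6 hpa (log2 fold change -5.09 ± 0.86, adjusted p = 4.62e-05). Atp6v1b1.L, a proton pump subunit, was at 19.8, 15.8 and 15.3 CPM at 3 dpa, against 88.8, 62.5 and 52.4 CPM at 6 hpa (log2 fold change -2.01 ± 0.37, adjusted p = 0.000199). Foxi1.L, a forkhead factor of ionocytes, was at 15.2, 22.4 and 9.22 CPM at 3 dpa, against 35.4, 48.7 and 61.1 CPM at 6 hpa (log2 fold change -1.60 ± 0.39, adjusted p = 0.00565). Foxi1.L lost its call without 3 dpa C (adjusted p = 0.0785). Foxi1.L and atp6v1b1.L are also on the epidermis list, and slc4a1 and ca2 on the erythroid list. Of the 15 lower members 6 held without any 1 library.

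Of 72 genes of the citrate cycle and fatty acid oxidation 31 fell (43.1% against 3.69% of all genes) and 0 rose. The median log2 fold change was -1.14, with 1 positive value, and 8 of the 31 held without any 1 library. Cpt1b.L, which admits fatty acids to muscle mitochondria, was at 32.5, 26.7 and 34.9 CPM at 3 dpa, against 139, 120.5 and 160.4 CPM at 6 hpa (log2 fold change -2.15 ± 0.35, adjusted p = 3.12e-05). Acat1.S, an enzyme of ketone and isoleucine breakdown, was at 20.4, 36.5 and 27.1 CPM at 3 dpa, against 127, 76.4 and 146 CPM at 6 hpa (log2 fold change -2.05 ± 0.35, adjusted p = 4.54e-05). Of 14 complement genes 4 rose (28.6% against 1.09% of all genes) and 0 fell. Their median log2 fold change was 1.28, with 11 of 14 values positive. Their summed levels were 571, 375 and 485 CPM at 3 dpa, against 129, 85.1 and 129 CPM at 6 hpa. A large part of these sums was c3.L alone, so they do not speak for the list as a whole. C3.L, the central complement component, was at 348, 159 and 243 CPM at 3 dpa, against 63.5, 42.4 and 85.1 CPM at 6 hpa (log2 fold change 2.00 ± 0.36, adjusted p = 0.000108). C9.L, of the membrane attack complex, was at 39.1, 13.8 and 31.4 CPM at 3 dpa, against 5.80, 1.63 and 6.55 CPM at 6 hpa (log2 fold change 2.68 ± 0.67, adjusted p = 0.00853). C9.L lost its call without 3 dpa A or 6 hpa B (adjusted p = 0.065 to 0.103). Cpt1b.L, acat1.S and c3.L held without any 1 library.

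Single genes seen among the higher ones were kirrel2.L, an adhesion molecule, at 303, 387 and 224 CPM at 3 dpa, against 22.7, 33.1 and 50.2 CPM at 6 hpa (log2 fold change 3.16 ± 0.42, adjusted p = 4.63e-07). Angptl2.L, a secreted angiopoietin-like protein, was at 1017, 710.4 and 831 CPM at 3 dpa, against 149.8, 181 and 211 CPM at 6 hpa (log2 fold change 2.25 ± 0.35, adjusted p = 9.56e-06). Frem3.L, a matrix protein, was at 867, 1413 and 771 CPM at 3 dpa, against 169, 171 and 258 CPM at 6 hpa (log2 fold change 2.36 ± 0.36, adjusted p = 9.41e-06). Ror2.S, a receptor of Wnt ligands, was at 53.4, 40.8 and 44.0 CPM at 3 dpa, against 7.74, 4.19 and 8.73 CPM at 6 hpa (log2 fold change 2.79 ± 0.56, adjusted p = 0.000599). Keratins of simple epithelia and notochord rose, with krt8.1.S at 1474, 1061 and 1497 CPM at 3 dpa, against 335, 363 and 252 CPM at 6 hpa (log2 fold change 2.08 ± 0.37, adjusted p = 8.81e-05) and krt18.1.S at 318, 147 and 242 CPM at 3 dpa, against 58.6, 33.1 and 45.8 CPM at 6 hpa (log2 fold change 2.36 ± 0.39, adjusted p = 3.33e-05). Dio2.L, which activates thyroid hormone, was at 86.5, 23.2 and 84.4 CPM at 3 dpa, against 10.2, 12.8 and 10.9 CPM at 6 hpa (log2 fold change 2.51 ± 0.50, adjusted p = 0.000677). Igfbp2.S, which binds insulin-like growth factors, was at 100.2, 114 and 102 CPM at 3 dpa, against 23.6, 27.5 and 10.9 CPM at 6 hpa (log2 fold change 2.28 ± 0.48, adjusted p = 0.00126). Ocm4.5.L and ocm4.6.S, parvalbumin genes, were lower. The muscle list names ocm4, but these numbered symbols were not matched to it and are not in its counts. Ocm4.5.L averaged 4.97 ± 1.605 CPM at 3 dpa and 56.0 ± 9.84 CPM at 6 hpa (log2 fold change -3.50 ± 0.42, adjusted p = 4.45e-08). Ocm4.6.S averaged 5.24 ± 2.61 CPM at 3 dpa and 111 ± 30.4 CPM at 6 hpa (log2 fold change -4.42 ± 0.50, adjusted p = 2.77e-08). Kirrel2.L and the genes named after it held without any 1 library. At 1 dpa dio2.L averaged 8.54 ± 2.93 CPM and kirrel2.L 39.6 ± 11.2 CPM, close to their levels at 6 hpa, while krt8.1.S was at 966 ± 319 CPM.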
